A study of Homo sapiens with 32 samples.

Results

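The subject is 10 human immediate early genes, EGR1, EGR2, EGR3, IER2, IER3, IER5, CSRNP1, KLF6, NR4A1 and SRF, in cancer cells exposed to OTS964. The genes were chosen by name, through the transcript identifiers listed for them, with earlier results of these data known. All 10 were found among 18858 genes with a matched identifier, and all 10 passed the filter on low counts. Each value sums the listed transcripts of a gene.

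Immediate early genes are switched on within minutes of a growth signal or stress, without the need for new protein, and many of their mRNAs are short-lived. A signal through the ERK kinases reaches serum response factor (SRF) and its ternary complex partners on a short DNA element, the CArG box, in front of genes such as EGR1. EGR1, EGR2 and EGR3 are zinc finger transcription factors, NR4A1 is an orphan nuclear receptor, KLF6 is a Krüppel-like factor and CSRNP1 is a cysteine- and serine-rich nuclear protein. IER2, IER3 and IER5 are small immediate early response proteins, of which IER3 bears on cell survival and IER5 on the heat shock factor HSF1.

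RNA was sequenced in 32 libraries from 4 established human cancer cell lines, with 2 libraries in each of 16 groups. The lines were A375 (melanoma), Cal51 and MDA-MB-231 (breast cancer) and DLD1 (colorectal cancer), each as cells labelled G579S and as cells labelled wild-type, all in DMEM with serum. Cells received OTS964, an inhibitor of the transcription and splicing kinase CDK11, at 100 nM for 6 h, or the solvent DMSO for 6 h. The series describes wild-type cells as sensitive and G579S cells as resistant to CDK11 inhibition, and the labels do not say whether the G579S cells of a line are 1 clone. Nor do they state that a group's 2 libraries were grown apart, so a p-value reflects the spread of these samples only, and that spread may be technical.

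A library held between 16091376 and 29742687 estimated reads. The 4 libraries labelled DLD1 wild-type went against their label. The melanocyte factor SOX10 averaged 108 TPM (length-scaled transcript abundance) in their OTS964 group and 426 TPM in their DMSO group, against 0.102 and 0.813 TPM in the DLD1 G579S groups, while the intestinal factor CDX2 was at 5.00 and 2.40 TPM against 89.4 and 76.1 TPM. All 10 melanocyte markers together summed to 1208 to 1414 TPM in these 4 libraries and to 37.5 to 47.4 TPM in DLD1 G579S libraries, with 2 or 3 markers at 0 in a labelled wild-type group. SOX10, MIA and S100A1 carried that sum, while MITF went the other way, at 1.26 TPM under OTS964 and 4.72 TPM under DMSO in the labelled wild-type groups, against 12.2 and 8.96 TPM in the DLD1 G579S groups. Under DMSO A375 wild-type libraries differed from these libraries in 5.18% of 14318 genes, against 49.4% from Cal51 and 47.9% from MDA-MB-231. Whether they are a line apart from A375 was not tested. These 4 are written as libraries labelled DLD1 wild-type, or DLD1-labelled wild-type for short. The count of the 10 genes called across lines within a genotype is given with and without the DLD1 libraries. Other calls across lines include the DLD1 libraries unless stated, among them those of further gene lists. By r of log2 CPM over genes, replicates agreed least in the MDA-MB-231 wild-type OTS964 pair (0.943, against 0.951 to 0.980 in the other 15 pairs). By a chi-square of the counts over its degrees of freedom, the Cal51 G579S DMSO pair differed most, at 87.2, against 86.0 in the MDA-MB-231 pair.

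The stretch around the start of 3 of the genes holds a match to the CArG box, and is printed for that reason, with that of CSRNP1 beside it. The table of RefSeq promoters (build GRCh38.p14) held 13 windows for 8 of the 10 genes, each running from 250 bases before to 50 bases after a start. Capitals mark the CArG box in EGR1 (chr5:138465229-138465528, plus strand), in EGR2 (chr10:62816317-62816616, minus strand) and in SRF itself (chr6:43171019-43171318, plus strand). CSRNP1 (chr3:39153542-39153841, minus strand) has no CArG box in either of its windows. There capitals mark TGACG or its reverse complement, the core of the element bound by ATF and CREB factors. TGACG or its reverse complement also lies in the printed stretches of EGR1, EGR2 and SRF, where it is left in lower case.
EGR1: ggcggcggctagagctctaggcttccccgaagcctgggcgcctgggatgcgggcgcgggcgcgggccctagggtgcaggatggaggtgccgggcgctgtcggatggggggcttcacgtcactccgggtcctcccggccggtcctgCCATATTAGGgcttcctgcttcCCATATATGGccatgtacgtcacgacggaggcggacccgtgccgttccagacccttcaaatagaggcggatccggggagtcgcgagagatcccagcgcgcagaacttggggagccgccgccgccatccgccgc
EGR2: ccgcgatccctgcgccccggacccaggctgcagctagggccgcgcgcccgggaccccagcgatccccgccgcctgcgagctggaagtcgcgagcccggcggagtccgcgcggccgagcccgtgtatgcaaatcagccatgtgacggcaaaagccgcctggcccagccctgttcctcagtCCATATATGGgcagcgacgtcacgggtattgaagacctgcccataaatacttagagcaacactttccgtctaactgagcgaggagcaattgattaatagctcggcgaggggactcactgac
SRF: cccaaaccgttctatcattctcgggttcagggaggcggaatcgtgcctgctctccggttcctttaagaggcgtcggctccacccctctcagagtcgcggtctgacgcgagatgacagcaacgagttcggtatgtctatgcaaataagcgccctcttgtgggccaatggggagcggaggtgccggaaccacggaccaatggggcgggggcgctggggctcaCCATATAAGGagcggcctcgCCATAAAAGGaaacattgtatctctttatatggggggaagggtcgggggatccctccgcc
CSRNP1: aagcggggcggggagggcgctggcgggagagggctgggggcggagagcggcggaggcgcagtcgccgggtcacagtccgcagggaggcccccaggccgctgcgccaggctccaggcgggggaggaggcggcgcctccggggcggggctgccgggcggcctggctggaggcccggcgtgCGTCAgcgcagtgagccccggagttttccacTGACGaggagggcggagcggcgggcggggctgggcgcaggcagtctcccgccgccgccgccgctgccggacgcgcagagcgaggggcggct
CArG boxes were searched for on both strands. EGR1 has 2 of them, which begin 105 and 83 bases before the start. EGR2 has 1 in its first window, 71 bases before the start, and SRF has 2 in its first window, 30 and 10 bases before the start. Of 35116 windows of this length, 1.29% hold a CArG box and 11 (0.0313%) hold 2 or more. Of the 13 windows of these genes 3 hold a CArG box. TGACG, searched on both strands like the motifs that follow, lies in 5 of the 13 and in 24.6% of all windows, TATAAA in 1 and in 11.5%, GGAAGT in 4 and in 22.8%, and GGGCGG in 7 and in 45.0%. A match describes these letters and is not a measurement of binding.

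In wild-type cells 9 of the 10 genes rose and SRF fell. Across the 4 lines the largest fitted changes were those of EGR2, EGR1 and CSRNP1, at about 3 log2 units each. All 10 passed edgeR's quasi-likelihood test with Benjamini-Hochberg adjustment, where 61.8% of the 13677 genes tested were called, 29.9% higher and 32% lower, so being called is common in this contrast. The median log2 fold change was 1.29 over the 10 genes and −0.06 over all genes tested. Within single wild-type lines 9 of the 10 genes were called in A375 (45.8% of all genes), 6 in Cal51 (52.8%), 9 in the DLD1-labelled wild-type libraries (50%) and 5 in MDA-MB-231 (46.5%). Without the DLD1 libraries all 10 calls across lines remained. The share of all genes called in that fit is not given, so this count is not read as a result about the 10 genes. In G579S cells IER5 alone was called, at 0.25, where 2.82% of 13984 genes were called, 1.37% higher and 1.46% lower. That share moved to between 0.698% and 11.6% when 1 G579S library was left out, the lowest without the first DLD1 DMSO library and the highest without the second Cal51 DMSO library.

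**Figure D1:**
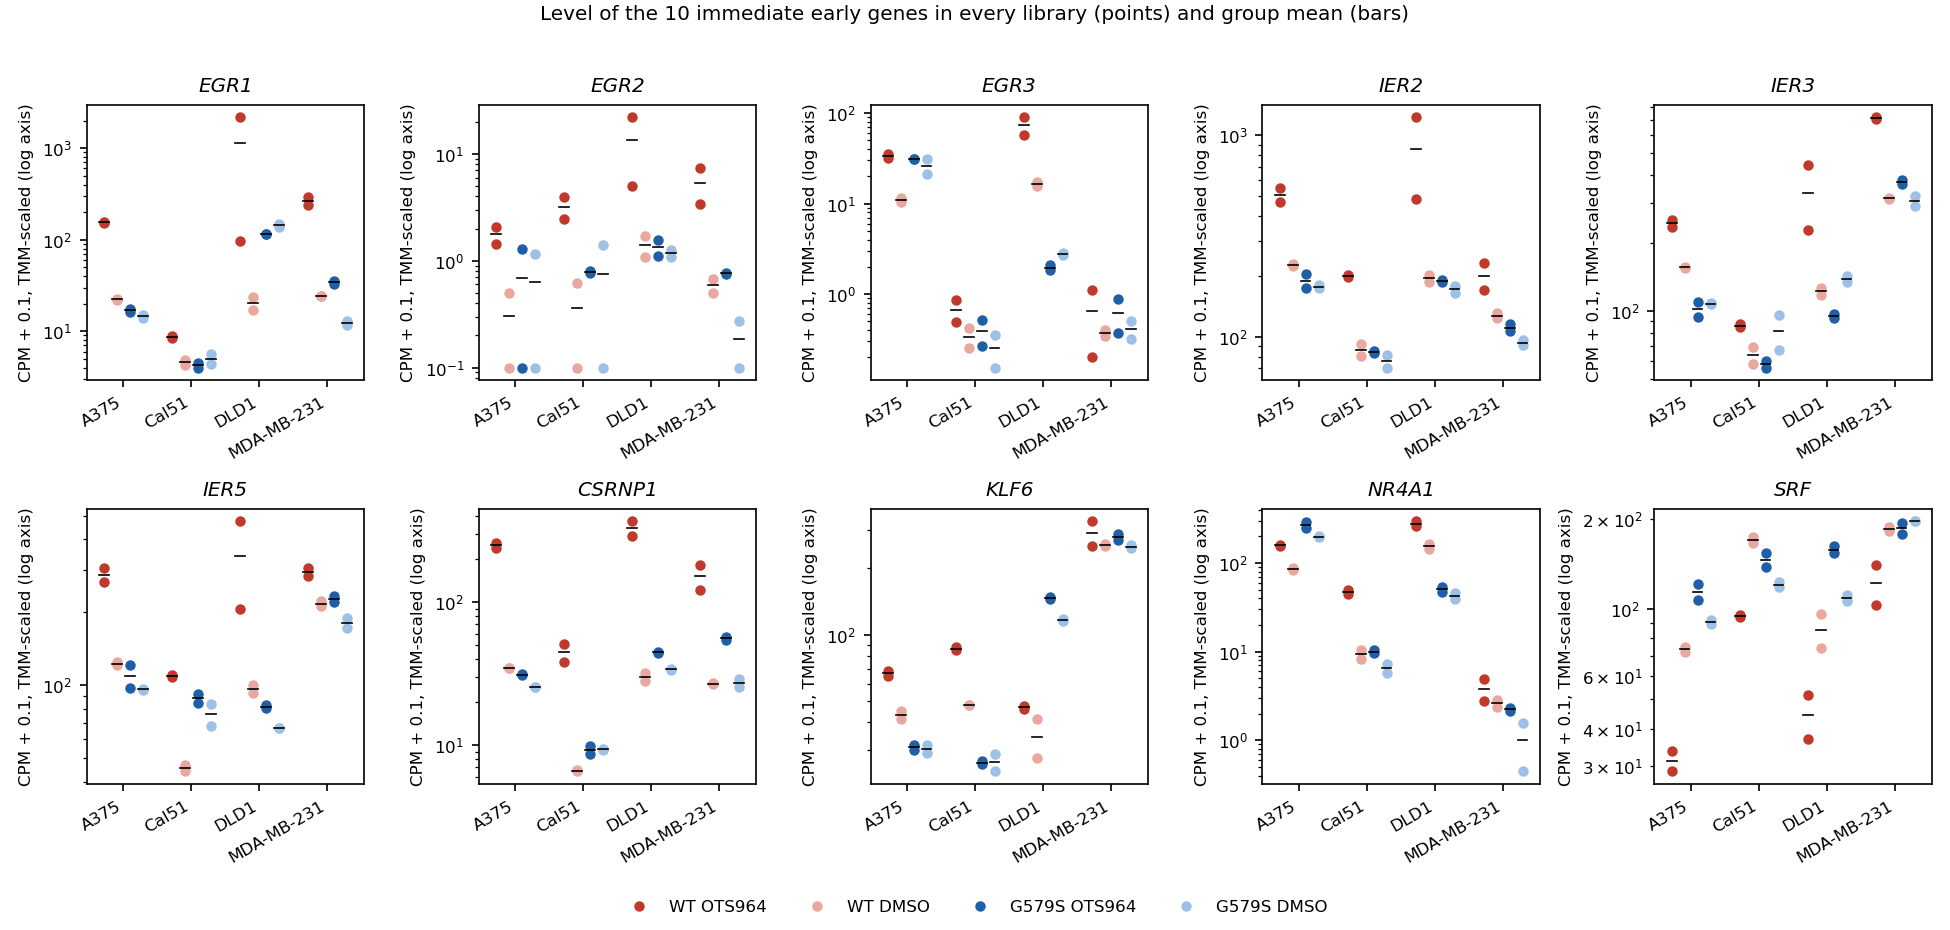
Levels of the 10 genes in every library, as TMM-scaled, depth-normalized counts (CPM) plus 0.1 on log axes, with OTS964 left of DMSO within each genotype and line. Points are libraries and bars are group means of 2. EGR1 in the DLD1-labelled wild-type libraries under OTS964 stands at 2178 and 95.8 CPM.

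Levels below are CPM scaled by TMM factors, which compare 1 gene between libraries, while TPM compares genes. CSRNP1 (NM_033027) was called in wild-type cells of A375, Cal51 and MDA-MB-231 and in the DLD1-labelled libraries. It stood at 240 and 259 CPM under OTS964 and 34.5 and 34.5 CPM under DMSO in A375 wild-type cells, and at 38.0 and 51.2 CPM against 6.46 and 6.63 CPM in Cal51. In the DLD1-labelled wild-type libraries it stood at 369 and 289 CPM under OTS964 and 27.9 and 31.7 CPM under DMSO, and in MDA-MB-231 at 181 and 122 CPM against 26.6 and 27.2 CPM. OTS964 and DMSO libraries did not overlap in any line. Here and below, the share of all genes that stood apart within every line was not counted. The lowest of the 8 OTS964 libraries also stood above the highest of the 8 DMSO libraries. That held for CSRNP1 alone of the 10 genes and for 5.33% of the 13677 genes tested. Across lines CSRNP1 rose by 2.95 ± 0.16 log2 units (SE), 7.70-fold (adjusted p = 5.36e-09), with log2 fold changes within lines of 2.49 ± 0.16 to 3.46 ± 0.17.

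EGR1 (NM_001964), which relays growth signals to its own target genes, rose with a wide spread between lines. It reached 157 and 153 CPM under OTS964 in A375 wild-type cells, against 22.6 and 22.0 CPM under DMSO, and 292 and 242 CPM in MDA-MB-231, against 24.4 and 24.5 CPM. In Cal51 it stood at 8.76 and 8.36 CPM under OTS964 and 4.14 and 4.81 CPM under DMSO, apart in these libraries but not called (log2 0.94 ± 0.82, adjusted p = 0.368). In the DLD1-labelled wild-type libraries it reached 2178 and 95.8 CPM under OTS964 and 17.1 and 23.7 CPM under DMSO, so 1 library stood far above its replicate. Across lines EGR1 rose by 3.34 ± 0.70 log2 units (adjusted p = 0.000763). Without that library the value was 2.48, and without all DLD1 libraries it was 2.51, both still called, where CSRNP1 stood at 2.85 and 2.72.

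That library, the first of the DLD1-labelled wild-type pair under OTS964, was high in several of the genes at once. The 10 genes summed to 5163 CPM in it and to 1747 CPM in its replicate, against 765 and 748 CPM in the 2 DMSO libraries of that label. IER2 stood at 1230 and 486 CPM in the pair, IER5 at 476 and 206 CPM, and EGR2 at 22.0 and 4.87 CPM. KLF6 did not follow, with 46.0 and 47.3 CPM, nor did NR4A1, with 259 and 297 CPM. Whether a feature of this library or of its culture bears on these values was not tested.

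EGR2 (NM_000399 held 92.6% of its reads) was close to the limit of detection under DMSO. It stood at 1.34 and 1.99 CPM under OTS964 in A375 wild-type cells, against 0.402 and 0 CPM under DMSO, and at 2.36 and 3.84 CPM against 0.517 and 0 CPM in Cal51. In MDA-MB-231 it stood at 7.26 and 3.27 CPM against 0.398 and 0.576 CPM, and in the DLD1-labelled wild-type libraries under DMSO at 0.978 and 1.61 CPM. OTS964 and DMSO libraries stood apart in all 4 lines. The rise was called across lines (3.38 ± 0.61 log2 units, adjusted p = 0.000229) and in no single line, where adjusted p lay between 0.11 and 0.196. With so few reads the fitted size may depend on the prior count, which was not varied.

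EGR3 split the lines by its level. In A375 wild-type cells it stood at 31.8 and 35.0 CPM under OTS964 and 11.3 and 10.3 CPM under DMSO, and in the DLD1-labelled wild-type libraries at 90.4 and 57.5 CPM against 17.1 and 15.5 CPM. In both it was called, with log2 fold changes of 1.62 ± 0.49 and 2.18 ± 0.50. The A375 call was lost without either DMSO library (adjusted p of 0.0546 and 0.0727). In Cal51 and MDA-MB-231 wild-type cells no library passed 1.01 CPM, and neither response was called. Across lines EGR3 rose by 1.74 ± 0.33 log2 units (adjusted p = 0.000311).

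**Figure D2:**
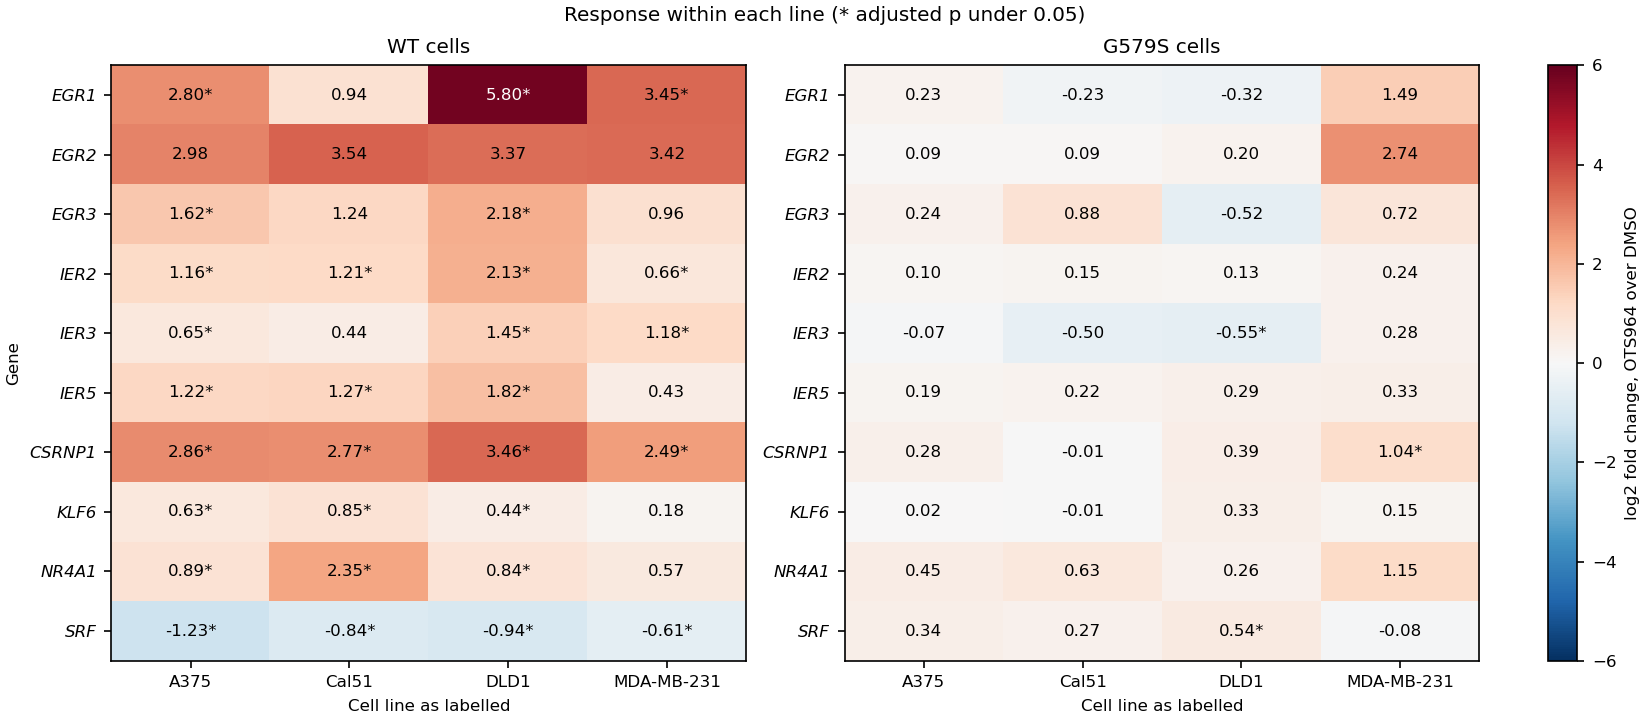
Log2 fold changes of the 10 genes, OTS964 over DMSO, in each cell line as labelled, with wild-type cells on the left and G579S cells on the right. Asterisks mark adjusted p under 0.05. CSRNP1 and IER2 were called higher and SRF was called lower in all 4 wild-type lines.

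Across lines the 3 IER genes had smaller fitted fold changes than EGR1 and CSRNP1, while in Cal51 IER2 and IER5 (1.21 and 1.27 log2 units) stood above EGR1 (0.94). IER2 stood at 547 and 470 CPM under OTS964 in A375 wild-type cells, against 225 and 230 CPM under DMSO, at 198 and 204 CPM against 92.6 and 80.6 CPM in Cal51, and at 233 and 171 CPM against 124 and 131 CPM in MDA-MB-231. In CPM no OTS964 library overlapped a DMSO library of its line, and IER2 was called in all 4. In TPM the MDA-MB-231 wild-type libraries did overlap, with 103 to 125 under OTS964 and 121 to 129 under DMSO. In MDA-MB-231, the smallest of these at 0.66 ± 0.25 (adjusted p = 0.034), the call was lost without either DMSO library or without the first OTS964 library, at 0.42 to 0.70. Across lines IER2 rose by 1.34 ± 0.23 log2 units (adjusted p = 0.000134).

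IER3 was the most abundant of the 10 in MDA-MB-231, at 706 and 790 TPM under OTS964 and 570 and 565 TPM under DMSO in wild-type cells. In CPM it stood at 719 and 707 under OTS964 and 316 and 312 under DMSO there, a called rise of 1.18 ± 0.20 log2 units. Cal51 gave 85.1 and 86.9 CPM under OTS964 and 69.0 and 58.0 CPM under DMSO, which was not called (0.44 ± 0.20, adjusted p = 0.0725). IER5 showed the other order, with 110 and 108 CPM against 46.6 and 44.0 CPM in Cal51, called at 1.27 ± 0.23, and 304 and 282 CPM against 223 and 212 CPM in MDA-MB-231, not called at 0.43 ± 0.22 (adjusted p = 0.118). In A375 wild-type cells IER3 stood at 253 and 236 CPM under OTS964 and 155 and 156 CPM under DMSO (0.65 ± 0.19), and IER5 at 305 and 267 CPM against 121 and 124 CPM (1.22 ± 0.22). The A375 call of IER3 was lost without the first DMSO or the first OTS964 library (adjusted p of 0.0523 and 0.0574). IER3 and IER5 were also called in the DLD1-labelled wild-type libraries, at 1.45 ± 0.20 and 1.82 ± 0.23, and IER5 there was at 1.09 without the first OTS964 library. Across lines IER3 rose by 0.98 ± 0.15 (adjusted p = 6.52e-05) and IER5 by 1.24 ± 0.21 log2 units (adjusted p = 0.000136).

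NR4A1 and KLF6 had their largest log2 fold changes in Cal51. NR4A1, a receptor with no known hormone ligand, stood there at 44.8 and 49.9 CPM under OTS964 and 8.17 and 10.4 CPM under DMSO, a rise of 2.35 ± 0.25 log2 units (adjusted p = 1.70e-07). In A375 wild-type cells it stood at 160 and 157 CPM against 82.4 and 88.6 CPM (0.89 ± 0.23), and in the DLD1-labelled wild-type libraries at 259 and 297 CPM against 145 and 165 CPM (0.84 ± 0.23), both called. The second of these calls was lost without the first DMSO library (0.75, adjusted p = 0.0503). MDA-MB-231 wild-type cells had 4.77 and 2.70 CPM under OTS964 and 2.29 and 2.78 CPM under DMSO, which overlapped. Across lines NR4A1 rose by 1.23 ± 0.22 log2 units (adjusted p = 0.000191).

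KLF6, a zinc finger transcription factor, stood at 85.2 and 87.6 CPM under OTS964 and 48.0 and 47.9 CPM under DMSO in Cal51 (0.85 ± 0.14, adjusted p = 3.17e-05). In A375 wild-type cells it stood at 65.1 and 68.3 CPM against 41.5 and 44.8 CPM (0.63 ± 0.14), and in the DLD1-labelled wild-type libraries at 46.0 and 47.3 CPM against 41.2 and 27.4 CPM (0.44 ± 0.14), both called. Without the second DMSO library of that label the change was 0.18 (adjusted p = 0.304), and without the second OTS964 library it was 0.42 (adjusted p = 0.0572). In MDA-MB-231, where KLF6 was highest, 252 and 328 CPM under OTS964 overlapped 252 and 260 CPM under DMSO. Across lines KLF6 rose by 0.57 ± 0.12 log2 units (adjusted p = 0.000764), the smallest rise of the 9.

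SRF (NM_003131) went the other way in every wild-type line. It fell to 33.7 and 28.7 CPM under OTS964 in A375, against 72.1 and 74.4 CPM under DMSO, and to 95.7 and 93.7 CPM in Cal51, against 166 and 174 CPM. It stood at 140 and 103 CPM under OTS964 and 188 and 182 CPM under DMSO in MDA-MB-231, and at 51.8 and 36.9 CPM against 96.0 and 74.1 CPM in the DLD1-labelled wild-type libraries. The groups did not overlap in any line, with log2 fold changes of −1.23 ± 0.15 in A375 to −0.61 ± 0.15 in MDA-MB-231, each called. Across lines SRF fell by 0.86 log2 units, to 0.553 of its DMSO level (SE 0.10, adjusted p = 2.34e-06).

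The size of each change rests on how libraries are scaled, because the RNA of wild-type OTS964 libraries was composed differently. The mean TMM factor was 0.768 ± 0.050 for wild-type cells under OTS964, against 1.121 ± 0.026 for wild-type cells under DMSO (SD, n = 8 each). With library totals alone the median of all genes moved by −0.59 and 1936 genes were called higher and 6801 lower, against 4086 higher and 4373 lower with TMM. EGR1, EGR2, EGR3, IER2, IER3, IER5, CSRNP1 and NR4A1 still rose and SRF still fell, but KLF6 turned to −0.02 (adjusted p = 0.871), against a median of −0.65 over all genes. With limma on log2(TPM + 1), a scale that understates low genes, KLF6 was called lower at −0.27, where the median over all genes was −0.60 and 8.5% of genes were called higher and 63.1% lower, and IER3, IER5 and NR4A1 were not called, at 0.10, 0.34 and 0.36. Within lines, some wild-type rises in CPM were absent from the mean TPM, which carries no TMM factor. Examples are IER2 in MDA-MB-231 (114 under OTS964, 125 under DMSO), IER3 in A375 (241 and 243) and EGR1 in Cal51 (2.65 and 2.74). Mean TPM of CSRNP1 was higher under OTS964 in every wild-type line. In bulk RNA, fewer cells of a type and less RNA per cell cannot be told apart.

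**Figure D3:**
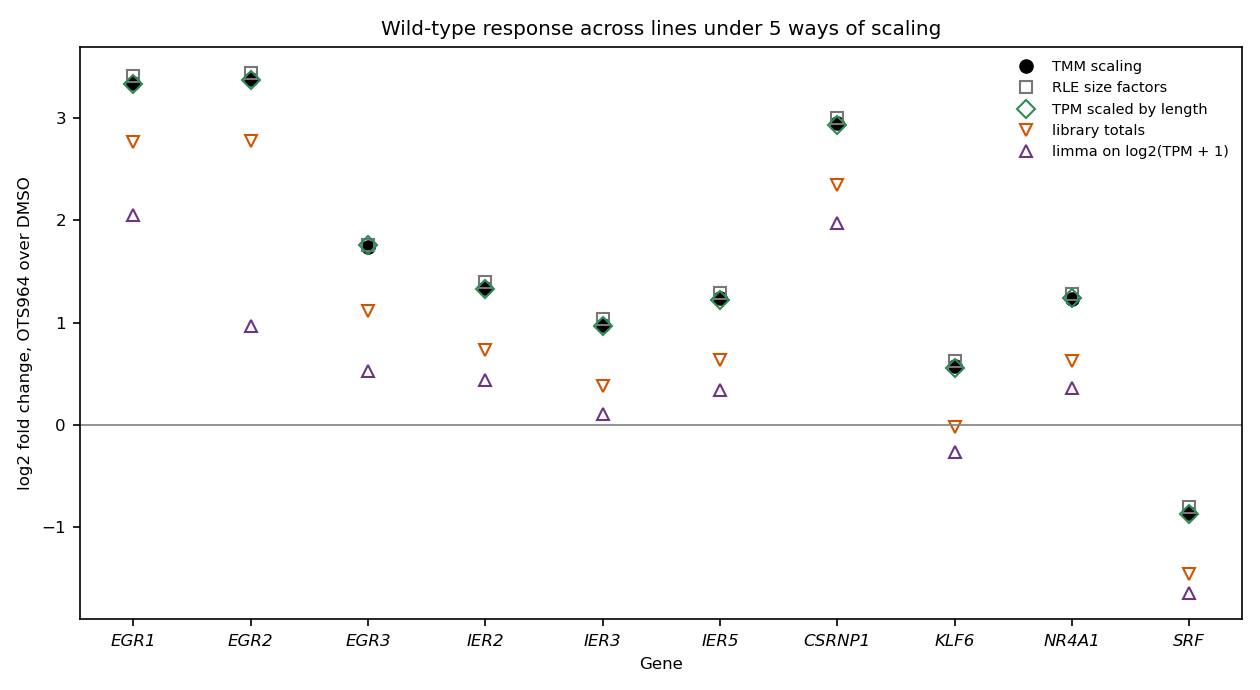
Log2 fold changes of the 10 genes in wild-type cells across lines, OTS964 over DMSO, under TMM scaling, RLE size factors, counts from length-scaled TPM, library totals and limma on log2(TPM + 1). CSRNP1 is lowest at 1.97 and EGR1 at 2.05, SRF stays below 0 throughout, and KLF6 crosses 0.

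In G579S cells 1 of the 10 genes was called across lines, and others were called within MDA-MB-231 and DLD1 as given further on. IER5 rose by 0.25 ± 0.06 log2 units (1.19-fold, adjusted p = 0.0404). Its 8 OTS964 libraries ran from 80.7 to 234 CPM with a median of 94.9 CPM, against 66.5 to 190 CPM with a median of 89.5 CPM in the 8 DMSO libraries. The sets overlapped, though within each of the 4 lines both OTS964 libraries stood above both DMSO libraries. The same held for NR4A1, which was not called, and the share of all genes with this pattern was not counted. The call was lost without each of 14 of the 16 libraries, with adjusted p of 0.0519 to 0.0958. Without the DLD1 G579S libraries, an alternative added after the data had been seen, it stood at 0.24 (adjusted p = 0.228), and 0 of the 10 genes and 0.255% of all genes were called.

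The other 9 genes were not called in G579S cells. CSRNP1 had a log2 fold change of 0.42 ± 0.12 (adjusted p = 0.0613), NR4A1 0.53 ± 0.15 (0.0721), SRF 0.26 ± 0.07 (0.0686) and IER2 0.15 ± 0.05 (0.112). EGR1 was at 0.29 ± 0.21, and IER3 was at −0.22 ± 0.11. Their median of 0.25 over all 10 genes stood beside −0.02 over all genes tested. DESeq2 called 5 of the 10, namely IER2, IER5, CSRNP1, NR4A1 and SRF, all higher, where it called 12.7% of all genes.

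Within G579S lines, A375 and Cal51 had 0 of 10 genes called, where 0.657% and 0.391% of 14318 genes were called. EGR1 stood at 17.5 and 16.3 CPM under OTS964 in A375 G579S cells, against 15.0 and 13.9 CPM under DMSO, and at 3.92 and 4.42 CPM in Cal51 G579S cells, against 5.51 and 4.28 CPM. In MDA-MB-231 G579S cells (0.307% of genes called) CSRNP1 was the 1 gene called. It stood at 54.5 and 57.3 CPM under OTS964 and 29.0 and 25.4 CPM under DMSO, a rise of 1.04 ± 0.16 log2 units (adjusted p = 0.00533) that was not called without the second DMSO library (0.95, adjusted p = 0.0769). EGR1 there had 32.8 and 35.4 CPM against 12.7 and 11.5 CPM, apart but not called (1.49 ± 0.70, adjusted p = 0.4).

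DLD1 G579S cells were the exception among G579S lines in the number of genes called, with 23.5% of all genes. SRF rose to 154 and 162 CPM under OTS964, against 106 and 111 CPM under DMSO (0.54 ± 0.15 log2 units, adjusted p = 0.0106), the opposite direction to wild-type cells. The call was lost without the first DMSO or the second OTS964 library (adjusted p of 0.0815 and 0.0672). IER3 fell to 96.7 and 92.6 CPM, against 134 and 143 CPM (−0.55 ± 0.20, adjusted p = 0.0499), a call lost when any 1 of these 4 libraries was left out. EGR1, at 114 and 115 CPM under OTS964 and 139 and 147 CPM under DMSO, was not called (−0.32 ± 0.65).

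**Figure D4:**
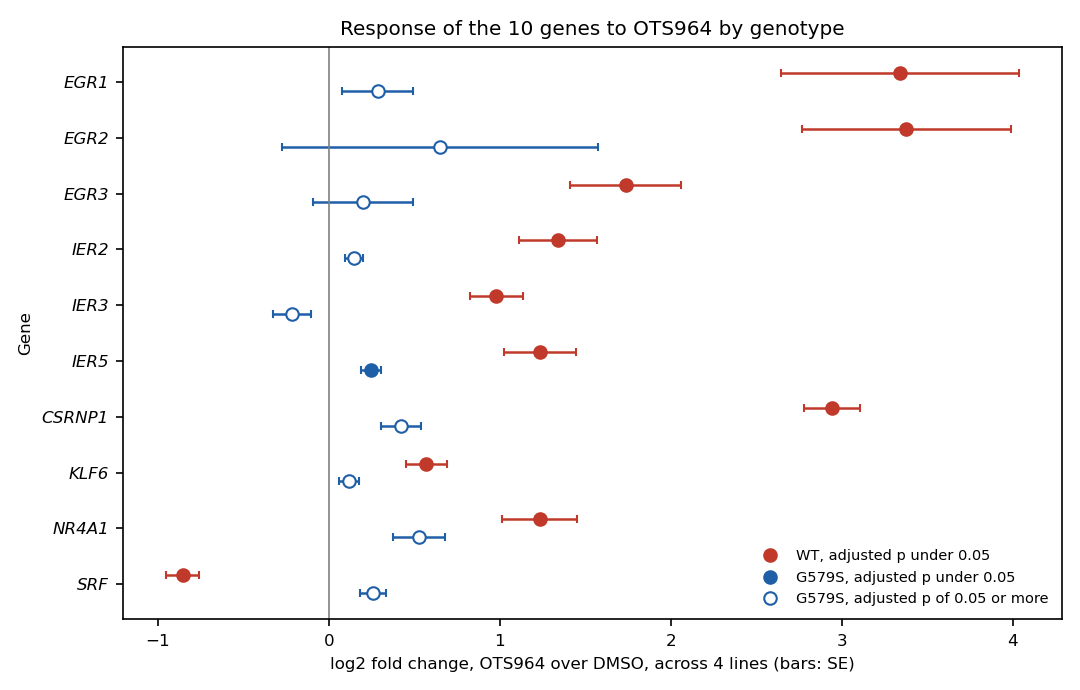
Log2 fold changes with SE of the 10 genes, OTS964 over DMSO, fitted across 4 lines, with wild-type above G579S in each row. Filled points have adjusted p under 0.05: all 10 in wild-type cells and IER5 in G579S cells.

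The difference between these responses was tested directly, with 50.1% of 14318 genes called, 24.3% higher and 25.8% lower. Of the 10 genes 7 responded more in wild-type than in G579S cells, and SRF responded in the other direction. Wild-type minus G579S response was 3.02 ± 0.71 log2 units for EGR1 (adjusted p = 0.000775), 2.46 ± 0.18 for CSRNP1 (6.03e-11) and −1.17 ± 0.13 for SRF (5.60e-08). For IER2, IER3, IER5 and KLF6 it was 1.13 ± 0.22, 1.14 ± 0.19, 0.93 ± 0.20 and 0.40 ± 0.12. EGR3, at 1.46 ± 0.43, lost its call without the DLD1 libraries (0.83, adjusted p = 0.245), and KLF6 turned to −0.03 with library totals.

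EGR2 (2.68 ± 1.14, adjusted p = 0.0518) and NR4A1 (0.63 ± 0.28, adjusted p = 0.0644) missed the threshold. With RLE size factors, which moved the median of all genes by 0.10 in this contrast, or with DESeq2, both were called. Within lines 7 of the 10 genes were called in A375 (33.9% of all genes), 7 in Cal51 (45.8%) and 2 in MDA-MB-231 (26.5%). In A375 the calls of EGR1 (2.57, adjusted p = 0.049) and IER3 (0.72, adjusted p = 0.0487) were the closest to the threshold. EGR1 lost its call without any 1 A375 library. Other calls were lost when certain single libraries of the line were left out. These were IER2, IER3, IER5 and KLF6 in A375, IER2 and IER3 in Cal51, and IER3 in MDA-MB-231. CSRNP1 was called in each of the 3 lines, at 2.57 ± 0.22, 2.78 ± 0.24 and 1.45 ± 0.22. The set labelled DLD1 gave 7 calls (36.7%), but there the 2 genotypes differed in their cell type markers as given above, and genotype and cell background cannot be told apart.

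Predicted transcripts entered the sums of NR4A1 and EGR3, for which curated ones held 90.24% and 98.71% of the TPM, against 100.0% for the other 8. Transcript NM_173157 held 98.6% of its TPM under OTS964 and 85.9% under DMSO in A375 wild-type cells, 97.99% and 56.5% in Cal51, and 99.4% and 89.8% in the DLD1-labelled wild-type libraries (means of 2 libraries). The predicted transcript XM_005268822 held 0.78%, 2.01% and 0.05% under OTS964, against 10.3%, 37.1% and 6.04% under DMSO. In G579S cells NM_173157 held 87.2% under OTS964 and 91.1% under DMSO in A375, and 27.5% and 33.0% in Cal51. With curated identifiers alone the wild-type rise of NR4A1 was 1.69 log2 units and the difference from G579S 1.28 (adjusted p = 0.00712). Tested as a change of usage in wild-type cells, NR4A1 did not pass (edgeR's diffSpliceDGE with the Simes method, adjusted p = 0.0726, where 6.09% of 6401 genes passed), nor did EGR3 (0.96). Tested as a single transcript in the same fit, XM_005268822 passed, at −3.57 log2 units relative to the gene (adjusted p = 0.0469). The other 8 genes had a single transcript above the filter there, and estimated reads of overlapping transcripts are shared by a model.

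The wild-type lines differed in the size of single responses. Each line's response was compared with the mean of the other 3, and 9 of 40 such tests passed. For Cal51 (13.9% of all genes called) NR4A1 rose by 1.58 ± 0.29 log2 units more and EGR1 by 3.08 less (SE 0.92, adjusted p = 0.03). The EGR1 call was lost when any 1 Cal51 wild-type library was left out, and the difference was −1.89 without the first DLD1-labelled wild-type OTS964 library. For MDA-MB-231 (24.4% of all genes) the rises of IER5, IER2, CSRNP1 and KLF6 were smaller, with differences of −1.0045 ± 0.25, −0.84 ± 0.28, −0.54 ± 0.18 and −0.46 ± 0.16. Of these IER5 alone was called without each library in turn, and CSRNP1 stood at −0.28 without the second MDA-MB-231 OTS964 library and KLF6 at −0.28 without the first. For A375 0 of the 10 passed (4.67% of all genes).

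The libraries labelled DLD1 wild-type had larger responses of EGR1, IER2 and CSRNP1 (4.84% of all genes called), with differences of 3.41 ± 0.81, 1.12 ± 0.28 and 0.76 ± 0.18 from the mean of the other lines. Without their first OTS964 library EGR1 stood at −0.16, IER2 at 0.30 and CSRNP1 at 0.57, and none of the 3 was called. EGR1 and IER2 also lost their calls without either DMSO library of that label, at 3.19 to 3.66 and 1.07 to 1.17. CSRNP1 lost its call without the first of these DMSO libraries, at 0.67.

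Under DMSO the wild-type lines differed widely in most of these genes. Between pairs of lines, 8 of the 10 genes were called for A375 against Cal51 (49.4% of all genes), 7 for A375 against MDA-MB-231 (47.9%), and 6 for Cal51 against MDA-MB-231 (49.3%). The DLD1-labelled wild-type libraries differed from Cal51 in 9 of the 10 (49%) and from MDA-MB-231 in 7 (49.1%). EGR1 stood near 24.4 CPM in MDA-MB-231, 22.3 in A375 and 20.4 in the DLD1-labelled wild-type libraries, which did not differ (adjusted p of 0.797 or more), and lowest in Cal51 at 4.47 CPM, below each of them. EGR3 was at 16.3 CPM in the DLD1-labelled wild-type libraries and 10.8 CPM in A375 (adjusted p = 0.741), against 0.269 CPM in MDA-MB-231 and 0.238 CPM in Cal51. NR4A1 followed the same order at the top, with 155 and 85.5 CPM, which did differ (adjusted p = 0.033), then 9.27 CPM in Cal51 and 2.54 CPM in MDA-MB-231.

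KLF6, IER3 and IER5 were highest in MDA-MB-231, at 256, 314 and 217 CPM, and above each other line. KLF6 stood at 48.0 CPM in Cal51, 43.2 in A375 and 34.3 in the DLD1-labelled wild-type libraries, and of these neighbours A375 did not differ from either (adjusted p = 0.388 and 0.255). CSRNP1 was at 34.5, 29.8 and 26.9 CPM in A375, the DLD1-labelled wild-type libraries and MDA-MB-231, with no difference called, and at 6.55 CPM in Cal51, below each. SRF was at 185 CPM in MDA-MB-231 and 170 CPM in Cal51 (adjusted p = 0.513), above the DLD1-labelled wild-type libraries at 85.0 CPM and A375 at 73.3 CPM, which did not differ (adjusted p = 0.619). IER2 was at 227 CPM in A375 and 196 CPM in the DLD1-labelled wild-type libraries (adjusted p = 0.889), then 128 CPM in MDA-MB-231 and 86.6 CPM in Cal51 (adjusted p = 0.0692). A375 differed from the DLD1-labelled wild-type libraries in NR4A1 alone of the 10 (5.18% of all genes).

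By TPM, which allows genes to be ranked, IER3 was highest under DMSO in all 4 wild-type groups, with 104 to 570 TPM over the 8 libraries and a median of 219 TPM. IER2 followed with 78.9 to 198 TPM (median 145) and IER5 with 37.0 to 187 TPM (median 81.5). EGR2 had the lowest median of the 10, at 0 to 0.909 TPM (median 0.306). Under OTS964 CSRNP1 reached 11.6 to 107 TPM (median 69.6) in wild-type cells, against 3.92 to 18.1 TPM (median 16.0) under DMSO.

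Between genotypes under DMSO, IER2 alone was called across lines (2.82% of 14061 genes, 1.27% higher and 1.54% lower), lower in G579S by 0.29 log2 units (SE 0.06, adjusted p = 0.0308). It ran from 70.7 to 182 CPM with a median of 131 CPM in the 8 G579S libraries and from 80.6 to 230 CPM with a median of 160 CPM in the 8 wild-type libraries, which overlapped. The call was lost without each of 7 of the 16 libraries (adjusted p of 0.0506 to 0.0711). Without the DLD1 libraries it stood at −0.33 (adjusted p = 0.0407).

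Single lines carried larger differences, in a comparison added after the data had been seen. NR4A1 stood at 196 and 199 CPM in A375 G579S cells, against 82.4 and 88.6 CPM in A375 wild-type cells (1.21 ± 0.23 log2 units, adjusted p = 0.00151), with 2 of 10 genes and 9.77% of all genes called. In MDA-MB-231 (7.3% of all genes) NR4A1 was lower in G579S cells, at 0.346 and 1.46 CPM against 2.29 and 2.78 CPM (−1.39 ± 0.35, adjusted p = 0.0185). KLF6 was lower in G579S cells of Cal51, at 28.8 and 23.8 CPM against 48.0 and 47.9 CPM (−0.87 ± 0.14, adjusted p = 0.000229, where 17% of all genes were called). DLD1 G579S cells had EGR1 at 139 and 147 CPM, against 17.1 and 23.7 CPM in the DLD1-labelled wild-type libraries, with 4 of 10 genes and 49.1% of all genes called there.

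The other genes came from lists chosen with earlier results of these data known. They hold 30 further immediate early genes, 16 partners and controllers of the 10 genes, and 16 genes of the ERK pathway. Besides partners of SRF and EGR factors, the list of 16 partners and controllers includes CSRNP2, KLF7, HSF1, SP1, RXRA, CREBBP and EP300. Calls of these lists are given with the DLD1 libraries only. Of 29 further immediate early genes tested in wild-type cells, 18 rose and 2 fell, with a median log2 fold change of 1.24, where 29.9% of all genes were called higher and 32% lower with a median of −0.06. JUNB, an AP-1 subunit, rose by 1.74 ± 0.25, FOS, its partner, by 1.38 ± 0.37 and the stress factor ATF3 by 1.25 ± 0.17. Levels of JUNB and FOS spread widely over the 8 wild-type OTS964 libraries. JUNB averaged 224.5 CPM (SD 241.5) with a highest library at 795.8 CPM, and FOS 13.4 CPM (SD 16.38) with a highest library at 52.96 CPM. ZFP36, which destabilises short-lived mRNAs, fell by 1.18 (SE 0.21), and JUN and BTG2 were not called, at 0.15 ± 0.24 and 0.85 ± 0.42. In G579S cells 3 of 30 rose and 0 fell (1.37% and 1.46% of all genes), and JUNB and FOS stood at 0.05 ± 0.16 and −0.21 ± 0.17.

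Among the 16 partners and controllers 3 rose and 9 fell in wild-type cells (29.9% and 32% of all genes), with a median of −1.90. MRTFA, an actin-regulated coactivator of SRF, averaged 2.89 ± 2.16 CPM under OTS964 and 29.3 ± 10.8 CPM under DMSO (SD, n = 8 each), a fall of 3.49 log2 units (SE 0.22, adjusted p = 1.25e-08). ELK4, a ternary complex factor that binds beside SRF, averaged 10.2 ± 3.85 CPM against 71.4 ± 5.88 CPM and fell by 2.77 (SE 0.19). NAB2, a corepressor of EGR1, averaged 5.16 ± 5.03 CPM against 41.9 ± 27.9 CPM and fell by 3.19 (SE 0.62). ELK1, another ternary complex factor, rose by 0.20 ± 0.06, and NAB1 and MRTFB were not called, at −0.78 ± 0.45 and −2.04 ± 1.11. Of 15 tested in G579S cells 0 were called (2.82% of all genes).

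Of the 16 genes of the ERK pathway 8 rose and 4 fell in wild-type cells (29.9% and 32% of all genes), with a median of 0.20, so that 12 of 16 were called where 61.8% of all genes were. In G579S cells 0 of the 16 were called (2.82% of all genes). The kinase MAPK3 rose by 1.05 ± 0.09 and the upstream kinase BRAF by 1.21 ± 0.32. The downstream kinases moved apart, with RPS6KA3 at 0.37 ± 0.13 and RPS6KA5 at −0.80 ± 0.19, each called. These are levels of mRNA, and no protein or phosphorylation was measured.

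Each of the 10 genes has fewer exons than the median of the tested genes. In GENCODE annotation IER5 has 1 exon and EGR1, EGR2, EGR3, IER2 and IER3 have 2, so that 6 of the 10 have 1 or 2, against 8.2% of the 13511 tested genes with an exon number (median 8). KLF6 has 4 exons, CSRNP1 5, and NR4A1 and SRF 7 each.

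Over the means of all 16 groups, the genes with patterns most like each of the 10 were found by Pearson's r of log2 CPM among all tested genes. The groups share lines, genotypes and treatments, so these values are a description. Spearman's rho for the genes named lay between 0.853 and 0.988. SERPINE2 was most like EGR3 (r = 0.987), HOXA4 like NR4A1 (0.977), NT5E like KLF6 (0.976) and PELO like IER2 (0.976). VAMP7 was most like IER3 (0.966), TIPARP like CSRNP1 (0.958), ANKRD13C like SRF (0.950), ATP13A2 like EGR1 (0.949), VAT1 like IER5 (0.925) and PABPC1 like EGR2 (0.897).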

How the data were processed

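Per the file headers, the authors deposited for each library a transcript table with a length, an effective length, TPM and an estimated count of reads; the quantification tool was not given in the sources used here. The submitters' processing notes list mouse builds, while the transcript identifiers are human. Of 87398 identifiers 42543 were matched to a gene through RefSeq, holding 85.62% to 89.37% of a library's reads (14333245 to 26237257 reads). The rest, mostly predicted or numbered identifiers, were not used. Estimated counts and TPM were summed per gene, and the counts were rounded to whole numbers.

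Tests used edgeR 4.0.16 in R 4.3.3 (TMM, filterByExpr, robust quasi-likelihood F test, Benjamini-Hochberg adjustment over all genes tested, threshold 0.05). Responses across lines had the line as a block; contrasts within and between lines came from 1 fit of 16 groups with 16 residual degrees of freedom. Transcript usage was tested with diffSpliceDGE. DESeq2 1.42.0, limma 3.58.1 on log2(TPM + 1) and other scalings and filters were alternatives. The procedure was also run on simulated data with a fixed spread and few changed genes. These settings differ from the present data, so that run does not test the scaling. Likeness used log2 CPM with a prior count of 2, and the 2 most alike genes were kept per gene. All 10 genes are named whatever their values. The genes and lists were chosen with earlier results of these data known.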

Additional observations from a re-analysis of the deposited data

Results flagged for a closer look

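Responses that differed between genotypes or between lines by a direct test are collected here, as differences of log2 fold changes from edgeR's quasi-likelihood test. Across lines, the wild-type minus G579S response was 3.02 for EGR1, 1.46 for EGR3, 1.13 for IER2, 1.14 for IER3, 0.93 for IER5, 2.46 for CSRNP1, 0.40 for KLF6 and −1.17 for SRF. In A375 it was 2.57 for EGR1, 1.06 for IER2, 0.72 for IER3, 1.04 for IER5, 2.57 for CSRNP1, 0.61 for KLF6 and −1.57 for SRF. In Cal51 it was 1.06 for IER2, 0.93 for IER3, 1.05 for IER5, 2.78 for CSRNP1, 0.86 for KLF6, 1.73 for NR4A1 and −1.12 for SRF. In MDA-MB-231 it was 0.91 for IER3 and 1.45 for CSRNP1.

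In the set labelled DLD1 it was 6.12 for EGR1, 2.70 for EGR3, 2.00 for IER2, 2.00 for IER3, 1.53 for IER5, 3.07 for CSRNP1 and −1.48 for SRF, where the 2 genotypes also differed in cell type markers. Without the first DLD1-labelled wild-type OTS964 library it was 2.55 for EGR1, 2.34 for EGR3, 1.18 for IER2, 1.44 for IER3, 0.80 for IER5, 2.89 for CSRNP1 and −1.74 for SRF.

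Between wild-type lines, the response of Cal51 minus the mean of the other lines was −3.08 for EGR1 (−1.89 without that library) and 1.58 for NR4A1. For the libraries labelled DLD1 it was 3.41 for EGR1, 1.12 for IER2 and 0.76 for CSRNP1. Without that library these were −0.16, 0.30 and 0.57. For MDA-MB-231 the difference was −0.84 for IER2, −1.0045 for IER5, −0.54 for CSRNP1 and −0.46 for KLF6.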

How the results depend on the processing

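In wild-type cells across lines all 10 genes were called without each library in turn (10 of 10 each time), 9 with library totals (63.9% of all genes) and 7 with limma on log2(TPM + 1) (71.6%), with KLF6 among these 7 in the other direction. In G579S cells the count of 1 was 0 with library totals (5.94% of all genes), 5 with DESeq2 (12.7%) and 2 with counts from length-scaled TPM (3.63%). It was 0 without the DLD1 G579S libraries and 0 with a replicate block. Without 1 library it ran from 0 to 5, with 5 without the second Cal51 DMSO library. The G579S minus wild-type count under DMSO of 1 was 0 with the block and 0 to 1 without 1 library. Wild-type minus G579S calls within lines were 23 of 40, and 14 with library totals. Calls of 1 line against the others were 9 of 40, 14 with DESeq2, 5 with the block and 5 to 14 without 1 library. Where no share of all genes is given beside these counts, a change of count is not read as a result about the 10 genes. KLF6 turned to −0.022 (library totals) and −0.267 (limma) in wild-type cells and to −0.029 and −0.264 for wild-type minus G579S. With limma EGR3 and KLF6 turned to −0.009 and −0.003 in G579S cells, and NR4A1 to −0.009 for wild-type minus G579S. With library totals IER3 turned to −0.269 in Cal51, KLF6 to −0.098 in the DLD1-labelled wild-type libraries and −0.317 in MDA-MB-231, and IER5 to −0.076 in MDA-MB-231. With library totals the median of all genes moved by −0.59 in wild-type cells and by −0.42 for wild-type minus G579S. The cause of these turns, and of the values that follow, was not tested. None of the values that turned in G579S minus wild-type under DMSO had been called. Without the DLD1 libraries these were EGR1 −0.513, EGR3 0.499, IER5 0.038, KLF6 −0.461 and SRF −0.034; IER3 was at 0.005 with RLE, 0.004 with DESeq2 and 0.002 with curated identifiers, and EGR2 at −0.347 with the block. Without 1 library, EGR1 ran from −0.099 to 0.416, EGR2 from −0.769 to 0.447, IER3 from −0.083 to 0.05 and KLF6 from −0.163 to 0.198 there. In MDA-MB-231 wild-type cells EGR3 ran from −1.347 to 1.874 and KLF6 from −0.023 to 0.361, and EGR1 in the libraries labelled DLD1 against the other lines ran from −0.16, without the first OTS964 library, to 4.345. Replicate numbers did not pair the samples (correlations of deviations of −0.035 to 0.068), and with the replicate block 7947 genes were called in wild-type cells, against 8459 without it, and 0 in G579S cells, against 395. Depth limits EGR2 throughout and EGR3 in Cal51 and MDA-MB-231.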
